A study of Homo sapiens with 6 samples.

Results

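Histone acetylation is set, removed and read by a compact group of enzymes and binding proteins, and 34 genes of this group were examined for H3K27ac in clear cell sarcoma (CCS) cells. The genes were chosen by name and by function, as 13 acetyltransferases that add acetyl groups, 18 deacetylases that remove them and 3 BET proteins that bind them. They were 34 of the 20033 protein-coding genes annotated in GENCODE version 44. A promoter peak was any H3K27ac peak with a base within 3 kb of an annotated transcript start of the gene, and a gene body peak was any other peak that overlapped the gene.

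The cells were SU-CCS-1, an established human CCS line of EWSR1::ATF1 (EA1) genotype, with no treatment given in the labels. Chromatin immunoprecipitation followed by sequencing (ChIP-seq) was performed with an antibody to H3K27ac in 3 samples, beside 3 samples of input chromatin sequenced without immunoprecipitation. The peaks of the H3K27ac samples were deposited as 1 merged list of 30784 intervals on hg38. The list has no replicate columns, no read counts and no peak scores, so every value below is a single value without a replicate error, the depth behind each peak is unknown, and no test between conditions was possible.

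Acetyltransferases such as EP300 and CREBBP transfer acetyl groups from acetyl-CoA to lysines in histone tails, and EP300 and CREBBP are the main enzymes that place acetylation on lysine 27 of histone H3. Histone deacetylases (HDACs) of classes I, II and IV remove these groups with the help of zinc, whereas sirtuins, the class III enzymes, use NAD. BET proteins recognise acetylated lysines through their bromodomains and bring transcription machinery to acetylated chromatin. H3K27ac itself marks active promoters and enhancers, and so some of the genes described here, such as EP300 and CREBBP, act on the mark measured at them. Others act on other residues or substrates, as given below.

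The labelled cell type was checked with marker genes. Of 9 melanocytic and neural crest genes, 8 had a promoter peak, including SOX10 with a widest peak of 18040 bases and MITF with 3390 bases, and TYR had none. None of the 20 marker genes of skeletal muscle, haematopoietic, epithelial and endothelial cells had a promoter peak.

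The sequences before the start sites are shown for the genes that mark the range of the results. They were taken from RefSeq on GRCh38.p14, and each runs for 250 bases up to the last base before a RefSeq start, 5′ to 3′ on the strand of the gene, with CG dinucleotides in capitals. EP300 had a promoter peak wider than the median, HDAC4 had the most extended acetylation, and SIRT4 had the narrowest peak over a canonical start. For HDAC9 the outermost start lay in a peak and the start next to the canonical start did not, and BRDT had no peak at all.
EP300, chr22:41092342-41092591, plus strand: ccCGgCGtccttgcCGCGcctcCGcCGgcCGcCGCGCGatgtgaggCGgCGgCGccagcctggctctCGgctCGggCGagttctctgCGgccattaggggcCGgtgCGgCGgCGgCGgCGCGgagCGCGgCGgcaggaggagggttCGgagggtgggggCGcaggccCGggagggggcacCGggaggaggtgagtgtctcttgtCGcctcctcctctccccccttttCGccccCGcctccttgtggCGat
HDAC4, chr2:239401650-239401899, minus strand: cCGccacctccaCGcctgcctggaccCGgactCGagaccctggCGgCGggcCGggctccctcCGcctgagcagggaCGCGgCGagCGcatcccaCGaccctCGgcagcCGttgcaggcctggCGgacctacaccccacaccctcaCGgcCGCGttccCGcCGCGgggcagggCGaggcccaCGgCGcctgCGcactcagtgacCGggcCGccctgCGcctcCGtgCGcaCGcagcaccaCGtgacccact
SIRT4, chr12:120302071-120302320, plus strand: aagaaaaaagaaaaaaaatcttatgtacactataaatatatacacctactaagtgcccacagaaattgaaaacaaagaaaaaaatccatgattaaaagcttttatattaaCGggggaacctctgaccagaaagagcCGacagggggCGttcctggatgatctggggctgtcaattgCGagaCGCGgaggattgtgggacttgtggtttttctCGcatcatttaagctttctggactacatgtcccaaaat
HDAC9 outermost start, chr7:18086575-18086824, plus strand: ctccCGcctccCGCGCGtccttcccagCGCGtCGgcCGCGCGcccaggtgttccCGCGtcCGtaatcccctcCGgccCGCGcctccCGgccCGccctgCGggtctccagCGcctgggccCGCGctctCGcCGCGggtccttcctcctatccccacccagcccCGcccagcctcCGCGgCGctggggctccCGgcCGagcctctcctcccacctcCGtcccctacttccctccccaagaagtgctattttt
HDAC9 near the canonical start, chr7:18495460-18495709, plus strand: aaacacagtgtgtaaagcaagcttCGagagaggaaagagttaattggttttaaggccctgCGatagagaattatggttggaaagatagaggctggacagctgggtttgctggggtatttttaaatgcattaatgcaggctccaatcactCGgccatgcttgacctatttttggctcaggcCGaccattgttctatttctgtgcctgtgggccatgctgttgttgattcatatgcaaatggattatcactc
BRDT, chr1:91949121-91949370, plus strand: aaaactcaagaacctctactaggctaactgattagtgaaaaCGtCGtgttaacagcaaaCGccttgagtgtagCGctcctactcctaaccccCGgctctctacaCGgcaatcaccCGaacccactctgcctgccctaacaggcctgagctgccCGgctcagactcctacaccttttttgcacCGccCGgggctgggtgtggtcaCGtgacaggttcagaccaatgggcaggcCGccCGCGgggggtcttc

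The printed windows ranged widely in CG content, with and without a peak. The windows of EP300 and HDAC4 held 35 and 33 CG dinucleotides, and each was 76.8% G and C. The outermost HDAC9 window held 32 CG dinucleotides at 75.2% G and C, whereas the window next to its canonical start held 4 at 44% and had no peak. SIRT4 held 7 CG dinucleotides at 39.6% G and C and had a peak. That peak began 30 bases upstream of the start, so most of the printed SIRT4 window lay outside it. BRDT held 14 at 58% and had no peak. The printed BRDT window belongs to a RefSeq start at -30 bases from the canonical start, and the window at the canonical start held 19 at 60%.

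Promoter peaks were found at nearly all of the genes. A promoter peak was present at 33 of the 34 genes (97.1%, 95% Wilson interval 85.08% to 99.48%), and the background was 63.4% of all protein-coding genes. It was present at 13 of 13 acetyltransferases (interval 77.19% to 100%), at 18 of 18 deacetylases (interval 82.41% to 100%) and at 2 of 3 BET genes (interval 20.77% to 93.85%). BRDT, a BET gene known for its expression in male germ cells, was the gene without one. These intervals cover counting alone, and the genes of a family are not independent samples.

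The 34 genes also had more annotated starts than other genes, which gives more places for a peak to be counted. They had a median of 14.5 starts, compared with 5 for all protein-coding genes. With the Ensembl canonical start alone, 32 of the 34 genes (94.1%) had a peak within 3 kb, compared with 59.9% of all protein-coding genes, and HDAC9 joined BRDT as a gene without a promoter peak.

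The start itself was covered by a peak in most cases. At least 1 annotated start lay inside a peak at 32 of the 34 genes, against a background of 58.2%, and KAT8 and BRDT were the exceptions. The canonical start lay inside a peak at 31 genes, against a background of 53.5%. Over all their annotated starts, 320 of 555 (57.7%) lay inside a peak, compared with 41.1% over all protein-coding genes. The share was 48.5% for acetyltransferases, 63.2% for deacetylases and 47.6% for BET genes. Several starts of 1 gene can lie in the same peak, so starts are not independent and genes with many starts weigh most. HDAC6 (44 of 52 starts in a peak) and HDAC8 (32 of 41) are such deacetylases. By gene, the canonical start lay inside a peak at 12 of 13 acetyltransferases, 17 of 18 deacetylases and 2 of 3 BET genes.

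**Figure D1:**
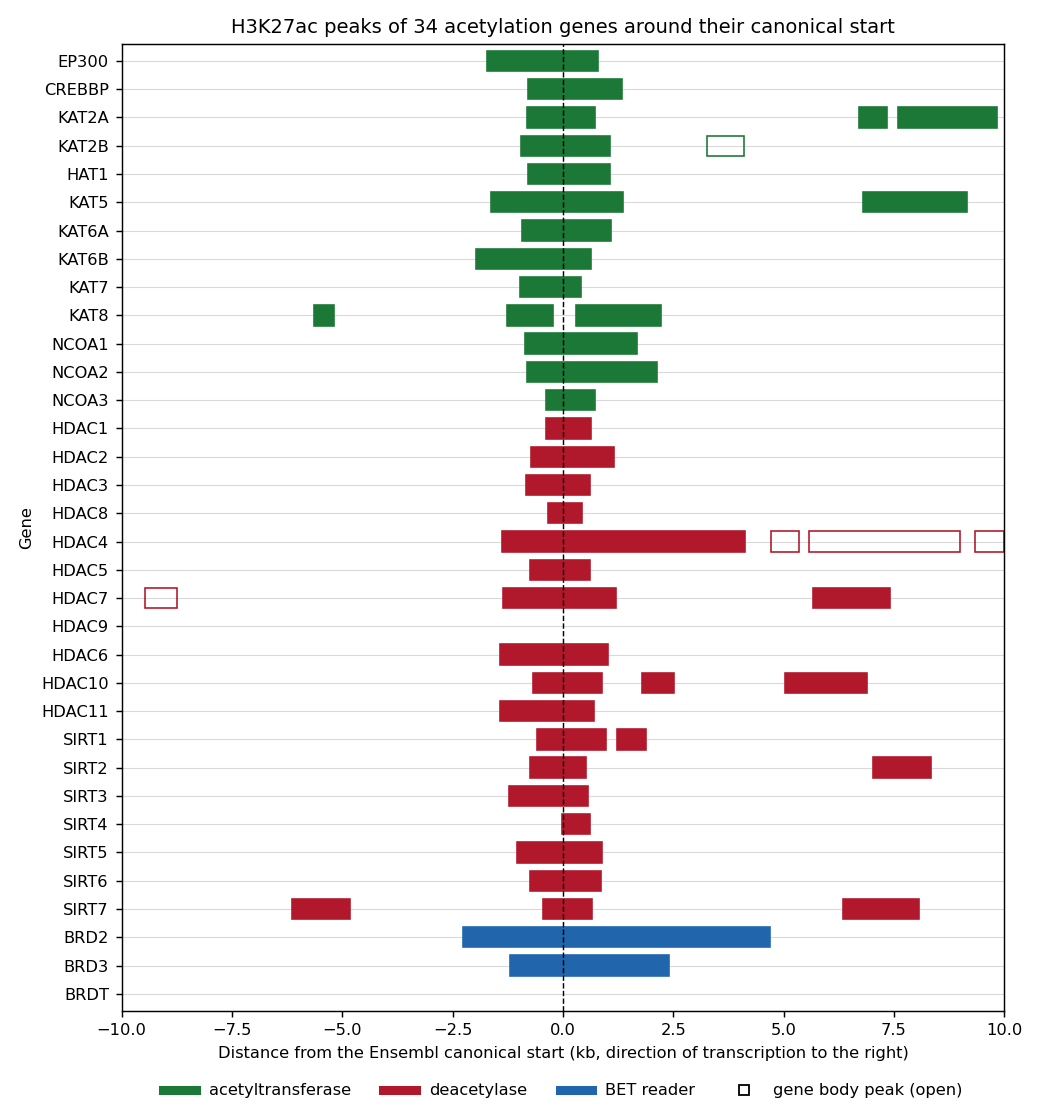
H3K27ac peaks within 10 kb of the canonical start of each of the 34 genes, drawn to scale, with distance from the start in kb on the horizontal axis and transcription running to the right. Filled boxes are promoter peaks of acetyltransferases (green), deacetylases (red) and BET genes (blue), open boxes are gene body peaks, and the dashed line is the canonical start, which lies inside a peak at 31 genes and in a gap of 530 bases at KAT8.

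Peaks over the canonical start were nearly balanced around it. In the 31 genes with such a peak, it reached a median of 841 bases upstream and 874 bases downstream, compared with 668 and 847 bases for the 10725 protein-coding genes of this kind. It reached further downstream than upstream at 18 of the 31 genes (58.1%), compared with 65.3% of the 10725 genes. EP300 and KAT6B lay on the upstream side, with 1721 bases upstream against 788 downstream at EP300 and 1969 against 640 at KAT6B. SIRT4, a mitochondrial sirtuin, lay at the other end, with a peak that began only 30 bases upstream of its start and ran 619 bases downstream.

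The widest promoter peak of each gene was used to compare the groups. Over the 33 genes its median width was 1910 bases (quartiles 1570 to 2510), compared with 1600 bases (quartiles 1110 to 2250) over all protein-coding genes with a promoter peak. It lay above 1600 bases at 23 genes, at 1600 bases at 1 gene and below at 9. The median was 2130 bases for the acetyltransferases (1120 to 3000) and 1750 bases for the deacetylases (510 to 8980), and the widths at the 2 BET genes were 3610 and 6960 bases. The range of the acetyltransferases lay inside that of the deacetylases, and with 1 value a gene in 1 merged list no test of the difference was made. Above the upper quartile of all genes with a promoter peak lay 5 of 13 acetyltransferases and 3 of 18 deacetylases. Below the lower quartile lay none of the acetyltransferases and 4 of the deacetylases.

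The widest promoter peak was not always the peak at the main start. For KAT2A, HDAC4, HDAC5, HDAC9, HDAC10, SIRT2 and SIRT7 it lay near another annotated start. Counting the peak over the canonical start instead, the median was 1880 bases over 31 genes and 1600 bases over all protein-coding genes with such a peak. It was 2080 bases for 12 acetyltransferases and 1570 bases for 17 deacetylases. On that measure 9 of 12 acetyltransferases and 7 of 17 deacetylases lay above 1600 bases.

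**Figure D2:**
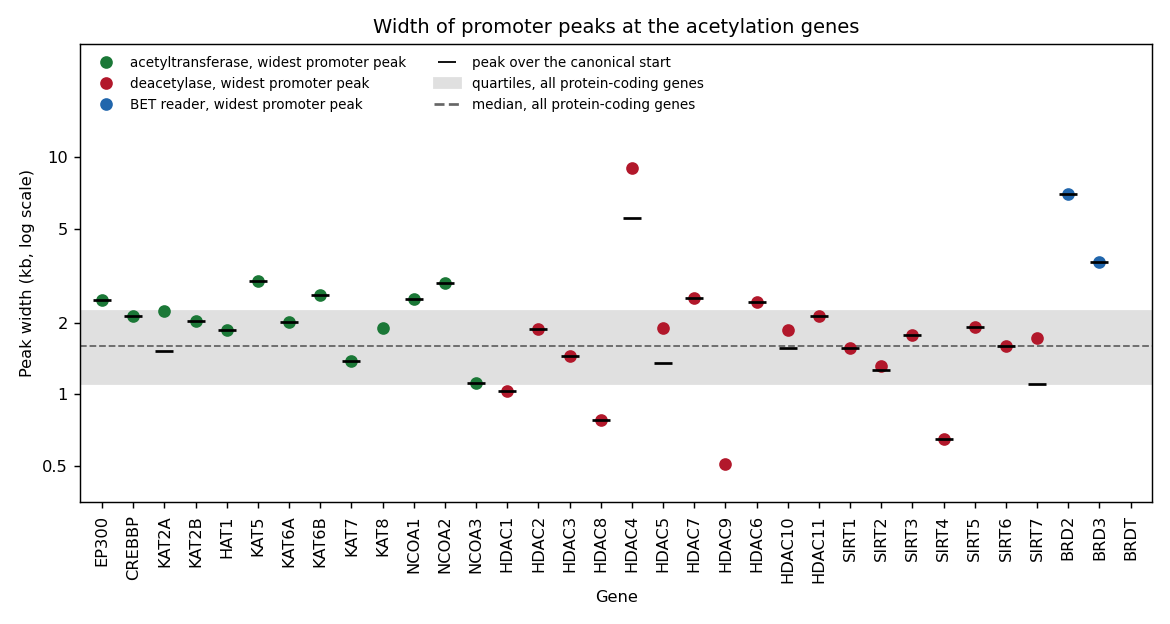
Width in kb, on a log scale, of the widest promoter peak of each gene (coloured dots) and of the peak over its canonical start (black bars). The grey band and dashed line are the quartiles (1110 to 2250 bases) and median (1600 bases) of the widest promoter peak over all protein-coding genes with a promoter peak. BRD2 and HDAC4 lie far above the band and HDAC9, SIRT4, HDAC8 and HDAC1 below it.

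Among the acetyltransferases, EP300 and CREBBP, the closely related p300 and CBP coactivators, had peaks of 2510 and 2130 bases over their canonical starts. EP300 (chr22:41092592-41180077) had no other peak within the gene. CREBBP (chr16:3725054-3880713) had 6 promoter peaks and 2 gene body peaks, and the 5 promoter peaks away from its canonical start measured 470 to 1370 bases and lay 123.6 to 143.0 kb downstream, in introns 19 to 26.

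KAT2A (GCN5) and KAT2B (PCAF) are alternative catalytic subunits of the SAGA and ATAC complexes. KAT2B had a peak of 2030 bases at its start and a gene body peak of 830 bases in intron 1. KAT2A had a peak of 1520 bases at its canonical start, and its widest promoter peak of 2240 bases lay 8.7 kb downstream, within reach of the start of DHX58. HAT1, which acetylates newly made histone H4, had a single peak of 1860 bases.

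The 5 MYST enzymes each had a promoter peak. KAT5 (TIP60), the catalytic subunit of the NuA4 complex, had the widest among all acetyltransferases at 3000 bases, and a further peak of 2370 bases lay 8.0 kb downstream, within reach of the start of RNASEH2C. KAT6A and KAT6B, the related MOZ and MORF enzymes, had peaks of 2020 and 2610 bases, and KAT7, the HBO1 enzyme, had a peak of 1380 bases.

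KAT8, the enzyme that acetylates lysine 16 of histone H4, was the acetyltransferase with no start inside a peak. Its canonical start lay in a gap of 530 bases between a peak of 1050 bases upstream (chr16:31116391-31117440) and a peak of 1910 bases downstream (chr16:31117971-31119880). The same arrangement, with the canonical start between peaks, was found at 1.34% of protein-coding genes. None of the 7 annotated starts of KAT8 lay in a peak.

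The nuclear receptor coactivators NCOA1, NCOA2 and NCOA3, which bring EP300 and CREBBP to hormone-bound receptors, had peaks of 2530, 2950 and 1120 bases at their starts. By widest promoter peak, NCOA3 was the narrowest of the acetyltransferases, at the 25.9 percentile of all genes with a promoter peak. NCOA2 stood at the 86.9 percentile.

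Class I deacetylases are the nuclear enzymes of the large corepressor complexes together with HDAC8. Their widest promoter peaks measured 1030 bases at HDAC1, 1880 at HDAC2, 1450 at HDAC3 and 780 at HDAC8, with a median of 1240 bases. HDAC1 and HDAC8 lay below the lower quartile of all genes with a promoter peak, at the 21.9 and 11.5 percentiles. HDAC8, on the X chromosome, had 41 annotated starts, of which 32 lay in a peak.

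Class IIa deacetylases, which shuttle between nucleus and cytoplasm and act mainly through partner complexes, were the most varied. HDAC4 held both the widest promoter peak and the most gene body peaks of all 34 genes. HDAC5 had peaks of 1350 bases at its canonical start and of 1900 and 1550 bases further into the gene, and HDAC7 had peaks of 2550 and 1760 bases and a gene body peak of 730 bases.

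At HDAC9 (chr7:18086949-19002416) the widest promoter peak measured 510 bases, the lowest such value of the 33 genes with a promoter peak. This peak, at chr7:18086551-18087060, was the only peak at the gene, and it covered 2 of its 31 annotated starts. These starts lie at the outer end of the gene, and the canonical start lies 408.8 kb downstream of the gene's first base, with no peak within 3 kb. The sequence printed above for the outermost start, which is rich in CG, lies wholly inside this peak.

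The class IIb deacetylases HDAC6, a cytoplasmic enzyme that acts on tubulin, and HDAC10, a polyamine deacetylase, had peaks of 2450 and 1560 bases at their canonical starts. HDAC6 had 52 annotated starts, the most of the 34 genes, and 44 of them lay in a peak. At HDAC10 a further peak of 1860 bases lay 6.0 kb downstream, within reach of the start of TUBGCP6. HDAC11, the class IV enzyme, which removes fatty acyl groups, had a single peak of 2130 bases.

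All 7 sirtuins, of which SIRT2 is mainly cytoplasmic, had a promoter peak. Their widest promoter peaks measured 1570 bases at SIRT1, 1320 at SIRT2, 1780 at SIRT3, 650 at SIRT4, 1930 at SIRT5, 1600 at SIRT6 and 1720 at SIRT7. The nuclear SIRT1, SIRT6 and SIRT7 and the mitochondrial SIRT3, SIRT4 and SIRT5 overlapped in width. At SIRT7 the peak over the canonical start was narrower, at 1100 bases, since the widest promoter peak lay 7.2 kb downstream near PCYT2.

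BRD2 and BRD3 are bromodomain proteins made in most tissues. BRD2 had the widest peak over a canonical start of the 34 genes, and BRD3 followed BRD2 and HDAC4. The BRD2 peak (chr6:32966331-32973290) measured 6960 bases, at the 98.4 percentile of all genes with a promoter peak. It extended 2263 bases upstream and 4696 bases downstream of the canonical start. It covered 18 of the 22 annotated starts of BRD2. The BRD3 peak measured 3610 bases, at the 91.9 percentile, and extended 1204 bases upstream and 2405 bases downstream. With 2 genes, nothing can be said of BET genes as a class.

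More than 1 promoter peak was found at 13 of the 34 genes (38.2%), and the background was 19.2%. The 34 genes had a median of 14.5 annotated starts against 5 for all protein-coding genes, and the part of this in the count was not tested. The 34 genes had 64 promoter peaks in total, of which 41 covered an annotated start, with a median width of 1780 bases, and 23 lay near a start without covering it, with a median of 1180 bases. HDAC4 accounted for 10 of the 64.

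Peaks inside the gene bodies were far less evenly spread than promoter peaks. They were found at 8 of the 34 genes (23.5%), and the background was 17.9%. There were 62 such peaks, and 41 of them lay in HDAC4 and 12 in KAT6B. NCOA1 had 3, CREBBP had 2, and KAT2B, KAT6A, HDAC7 and SIRT5 had 1 each. The SIRT5 peak lay near the start of NOL7, and the HDAC7 peak lay within 3 kb of a start of LINC02354. By role, gene body peaks were found at 5 of 13 acetyltransferases, 3 of 18 deacetylases and none of the 3 BET genes. Without peaks within 3 kb of a start of another gene, 6 genes kept a gene body peak. HDAC4 was the only deacetylase among those 6. The 34 genes had a median length of 43.98 kb, against 27.47 kb for all protein-coding genes. The acetyltransferase genes were longer than the deacetylase genes, with a median of 114 kb against 30.22 kb. The part of gene length in these counts was not tested.

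HDAC4 (chr2:239048168-239401654, minus strand, 353.5 kb) carried peaks along most of its length. Its 51 peaks comprised 10 promoter peaks and 41 gene body peaks, and together they covered 108.5 kb, or 30.69% of the gene. By the position of their centres 50 of the 51 lay in introns of the canonical transcript and 1 in exon 27. Intron 1 held 11 peaks with a summed width of 16.53 kb, intron 2 held 18 with 33.69 kb, and intron 3 held 6 with 15.44 kb.

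The widest peaks of HDAC4 lay deep in the gene. A gene body peak of 9.01 kb (chr2:239124981-239133990) lay in intron 11, a promoter peak of 8.98 kb (chr2:239189771-239198750) in intron 3 and a promoter peak of 7.58 kb (chr2:239108241-239115820) in intron 13. The peak over the canonical start measured 5.52 kb. In all, 13 of the 51 peaks were wider than 3 kb and 21 were narrower than 1 kb, and the median was 1300 bases.

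The other long genes of the group were covered far less. Of the 6 genes longer than 200 kb, HDAC4 held 51 peaks, KAT6B 13, NCOA1 4, HDAC8 2, NCOA2 1 and HDAC9 1. Among the 1502 protein-coding genes of that length, with a median of 2 peaks and 0.414% of the gene covered, HDAC4 ranked 1 by number of peaks, tied with the gene model ENSG00000286192, which also held 51, and 2 by share of the gene covered. KAT6B ranked 59 by number and 67 by share, with 5.37% covered. HDAC9, the longest of the 6 at 915.5 kb, ranked 1132 by share. These ranks describe the list and are not tests.

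**Figure D3:**
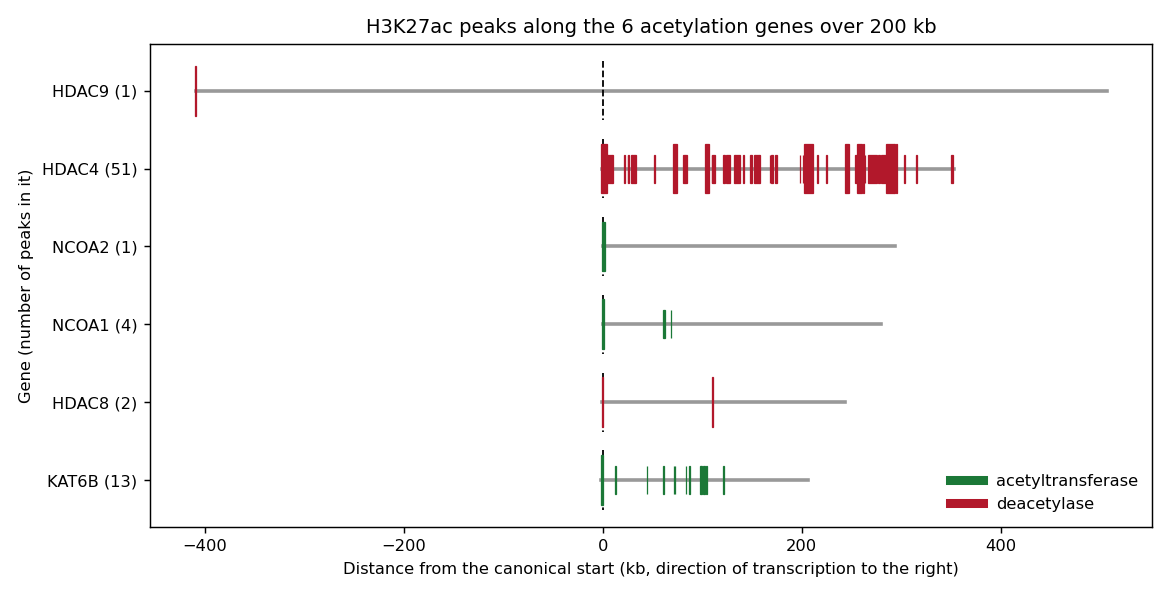
Peaks along the 6 genes over 200 kb, against distance from the canonical start in kb. Grey lines are the genes, tall boxes are promoter peaks, short boxes are gene body peaks, and numbers give the peaks in each gene; HDAC4 holds 51 peaks along its length and HDAC9 1, at its outer end.

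**Figure D4:**
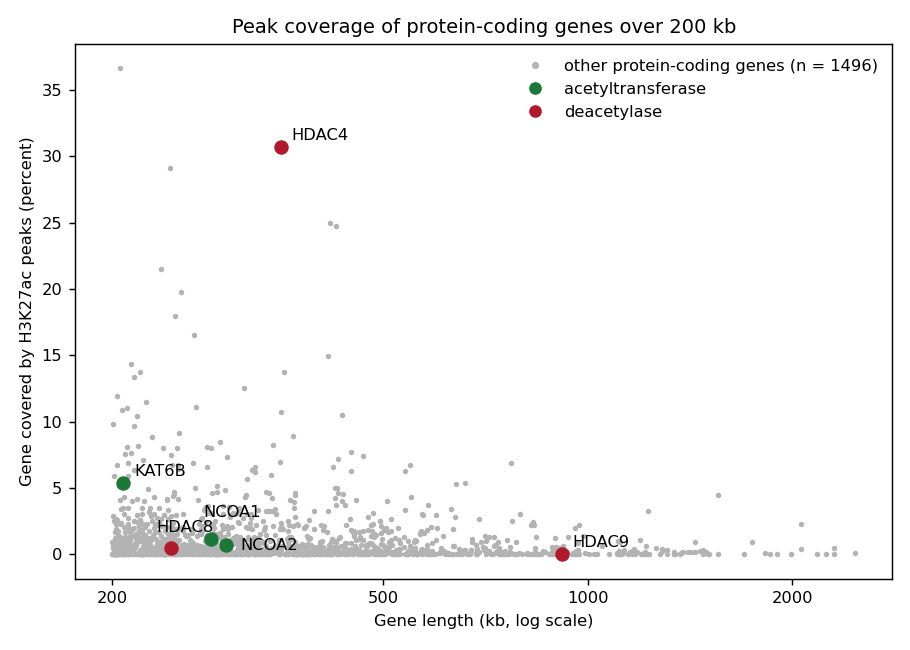
Share of each protein-coding gene over 200 kb that is covered by H3K27ac peaks (percent) against gene length (kb, log scale). Grey dots are 1496 other genes and coloured dots the 6 acetylation genes; HDAC4 stands at 30.69%, KAT6B at 5.37%, and the other 4 at or below 1.162%.

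KAT6B (chr10:74824927-75032624) was the other gene with many gene body peaks. All 12 lay in introns 2 and 3, between 12.8 and 121.3 kb downstream of the canonical start, with a median width of 605 bases and a widest of 2200 bases. The median of the HDAC4 gene body peaks was 1220 bases. NCOA1 held 3 gene body peaks of 420 to 610 bases in intron 1, and NCOA2, a related gene of similar length, held none.

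Neighbouring peaks were joined across gaps up to the stitching distance used in the study, and the resulting 17049 regions were ranked by summed peak width. This ranking stands in for the signal ranking used to call super-enhancers (SEs), which the list cannot give. Regions with a summed width past the point where the ranked curve reaches a slope of 1, at 7.97 kb, were called wide, and there were 879. A wide region reached 3 of the 34 genes, HDAC4, KAT8 and SIRT7, and the background was 7.67%.

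HDAC4 was reached by 7 joined regions, of which 4 were wide. They ranked 20, 46, 219 and 442 of 17049. The highest ranked (chr2:239084651-239157070) joined 13 peaks with 40.18 kb of summed width over 72.42 kb. The region at KAT8 ranked 609 and also held the starts of VKORC1, BCKDK and the gene model ENSG00000255439. The region at SIRT7 ranked 835 and held the starts of 4 other coding genes besides, ANAPC11, NPB, PCYT2 and MAFG. Of the 51 regions at the 34 genes, 28 consisted of a single peak.

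Many promoter peaks could not be assigned to a single gene. At 13 of the 33 genes with a promoter peak (39.4%), a promoter peak also lay within 3 kb of a start of another protein-coding gene, and the background was 36.8%. This held for 4 acetyltransferases, 8 deacetylases and BRD2, whose peak was shared with HLA-DMA. The other genes that shared were KAT2A with DHX58 and HSPB9, KAT5 with RNASEH2C, KAT7 with FAM117A, KAT8 with BCKDK and PRSS8, HDAC1 with MARCKSL1, HDAC3 with RELL2, HDAC8 with the overlapping gene model ENSG00000285547, HDAC10 with TUBGCP6 and SIRT7 with MAFG and PCYT2. The partners of the remaining sirtuins were NFKBIB for SIRT2, PSMD13 for SIRT3 and ANKRD24 for SIRT6. At HDAC3, SIRT2, SIRT3 and SIRT6 the partner started within 1 kb on the opposite strand, so that 1 peak lay at a divergent gene pair.

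Promoter sequences of 300 bases (250 before to 50 after the start) were available for 29 of the 34 genes. The sequence nearest the canonical start held a median of 30 CG dinucleotides and was 69.33% G and C. Over 15324 protein-coding genes the medians were 23 CG dinucleotides and 63.67%, and they were 28 for genes with a promoter peak and 8 for genes without. The medians were 31.5 for 10 acetyltransferases and 29.5 for 16 deacetylases. The promoters of these genes had a CG count near that of other genes with a peak. HDAC8 and SIRT4, which had narrow peaks, held 9 each, and BRDT, without a peak, held 23. HDAC1, whose peak also lay below the lower quartile of widths, held 28. HDAC9, with the narrowest promoter peak, held 41 at the start inside that peak. At its canonical start, which had no peak, it held 5.

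EA1 keeps the DNA-binding domain of ATF1, and so peaks and promoters were searched on both strands for TGACGTCA, the palindrome bound by ATF/CREB factors, for TGANNTCA, which leaves its centre free and includes the former, and for TGAGTCA, bound by AP1. In windows of 500 bases either side of the canonical start, TGACGTCA was found at 0 of the 34 genes, and at 3.51% of all protein-coding genes and 4.46% of those with a promoter peak. TGANNTCA was found at 3, namely HDAC8, SIRT1 and SIRT4, and at 23.7% of all protein-coding genes and 19.3% of those with a promoter peak. TGAGTCA was found at 1, KAT8, and at 9.65% of all and 7.49% of those with a promoter peak. A match is a sequence and not a measured binding site, and a window without a match says nothing of the factor.

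Over the whole of their peaks, TGACGTCA occurred 6 times, 5 times in HDAC4 and 1 time in BRD2. The sites are shown because they are the only full ATF/CREB sites in the peaks of these genes. Each is given in 30 bases on the strand of the gene, with the motif in capitals.
HDAC4, 52.2 kb downstream of the canonical start, chr2:239348850-239348879: ccctggttctcTGACGTCAaagctgcttaa
HDAC4, 156.9 kb downstream, chr2:239244096-239244125: cttctctggtcTGACGTCAgcccttgctta
HDAC4, 205.2 kb downstream, chr2:239195777-239195806: tgtgctctcacTGACGTCAggagtctgatt
HDAC4, 210.6 kb downstream, chr2:239190400-239190429: gcctctagaaaTGACGTCAgcaaggcctct
HDAC4, 295.1 kb downstream, chr2:239105868-239105897: ccagggggacgTGACGTCAcccaccagact
BRD2, 3.4 kb downstream, chr6:32971986-32972015: aatgaagtttaTGACGTCAtcgttgcggct

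The 205.2 kb and 210.6 kb sites of HDAC4 lay in the same peak, the promoter peak of 8.98 kb in intron 3. The gene HDAC4 held 5 TGACGTCA sequences in all, and all 5 lay in peaks, which covered 30.69% of the gene. The 109.2 kb of peaks at HDAC4 held 45.77 of these sequences per Mb, compared with 19.1 per Mb over the 44.03 Mb of all peaks. With 5 sequences this rate is imprecise. For TGAGTCA the rates were 164.8 per Mb at HDAC4 and 150.5 per Mb over all peaks. The BRD2 site lay inside the BRD2 peak of 6960 bases, 1286 bases from its nearer edge.

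The partner subunits and other readers of acetylation nearly all had promoter peaks too. A promoter peak was present at 34 of 35 subunits of acetyltransferase complexes, at 30 of 30 subunits of deacetylase complexes and at 29 of 29 other acetyl-lysine readers, all to be read against the background of 63.4%. ING4, a subunit of the HBO1 complex, was the gene without one. The medians of the widest promoter peak were 1730, 2185 and 1980 bases for these lists, compared with 1910 bases for the 34 genes.

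The widest promoter peaks of the acetyltransferase partners lay at JADE1 (4840 bases) and JADE2 (4570 bases), scaffolds of the HBO1 complex, and at MRGBP (3740 bases), a NuA4 subunit. Among the deacetylase partners, wide promoter peaks lay at MIDEAS (9570 bases), of the mitotic deacetylase complex, and at SIN3A (5970 bases), the scaffold of the Sin3 complex. Among the other readers the widest lay at SMARCA2 (3830 bases), CECR2 (3410 bases) and BRWD1 (3110 bases).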

How the data were processed

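H3K27ac ChIP-seq was performed in SU-CCS-1 cells, with 3 H3K27ac and 3 input samples. Per the study's methods and the submitters' processing notes, reads were aligned to hg38 with BWA-MEM (version 0.7.10-r789), duplicates were removed with samtools, broad peaks were called with MACS2 (version 2.2.6) against input at a p-value cutoff, and denylisted regions were removed. The authors deposited 1 merged list of 30784 peak coordinates. How replicates were merged is not given in the sources used here. Starts and ends lie on a 10-base grid and no peak is narrower than 400 bases. A gene without a peak was below the cutoff or removed, and need not lack the mark. Broad calling joins neighbouring stretches, so widths depend on how peaks were joined and not on the mark alone.

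Here peaks were intersected with GENCODE version 44 in Python 3.11.15 (numpy 2.4.6, pandas 2.3.3), with 20033 protein-coding genes as background, each counted once. Interval, joining and motif functions were tested on simulated data. Promoters came from RefSeq (GRCh38.p14). HDAC5, KAT6A, KAT8, NCOA2 and SIRT7 were not matched. The 34 genes, the lists and the alternatives were chosen with earlier results of these data known. Named genes are all 34 genes, list genes without a promoter peak, the 3 with the widest promoter peak in each list and coding genes sharing a peak. Of the genes this rule gives, 1 is not reported here. Other genes named at a joined region, a gene body peak or a tied rank were chosen after their values were seen.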

Additional observations from a re-analysis of the deposited data

How the results depend on the processing

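Of 56 alternatives to the settings above, 47 left a result within 1.5 times its value and 9 moved it further. The number of genes with a promoter peak was 33 with windows of 1 kb or 5 kb in place of 3 kb, and 29 and 22 with the widest 50% and 25% of peaks, when the share of all protein-coding genes was 49.0% and 26.9%. With the widest 25% of peaks, which measure at least 1760 bases, 9 deacetylases in place of 18 had a promoter peak and 18 genes in place of 32 had a start inside a peak. Genes with a gene body peak numbered 8, and became 13 with a window of 1 kb, 3 with the widest 50% of peaks and 2 with the widest 25%, whereas the number of their gene body peaks fell from 62 to 24 and 12. A wide joined region reached 3 genes, 6 when regions were ranked by span and 1 without peaks wholly within 2.5 kb of a start. Without HDAC4, the 33 other genes held 21 gene body peaks in place of 62. That the widest 50% and 25% leave fewer peaks follows from their construction. So does the rise to 13 with a window of 1 kb, which counts some promoter peaks as gene body peaks. The cause of the other shifts was not tested. Replicates could not be used. No paired analysis was possible because the list is merged and has no replicate columns, and for the same reason no replicate could be left out. Depth and peak scores are not in the list.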

Other observations

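RefSeq places a further start of SIRT4 at -10.13 kb from the canonical start. It lay inside a peak of 1840 bases (chr12:120291821-120293660) that is not a promoter peak by the GENCODE starts of SIRT4. The sequence before this start held the ATF/CREB site TGACGTCA, 51 bases upstream of it, and is shown in 30 bases with the site in capitals.
SIRT4, chr12:120292127-120292156, plus strand: gcaaatcaacgTGACGTCAcagagatgact

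The same peak also covered the starts of the U4 small nuclear RNA genes RNU4-1 and RNU4-2, so it cannot be assigned to SIRT4. Of all 51 RefSeq promoters of the 34 genes this was the only one with TGACGTCA, which was found in 2.3% of 21566 RefSeq promoters of protein-coding genes.

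RefSeq also places 4 starts of HDAC4 inside the gene, 102.5, 126.2, 127.4 and 133.5 kb downstream of its canonical start. The first of them lay in no peak. The other 3 lay in peaks counted above as gene body peaks, because GENCODE has no start within 3 kb of those peaks.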
